A study of Mus musculus with 8 samples.

Results

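The 7 genes examined here encode proteins that attach to voltage-gated sodium channels without forming the pore: the sodium channel beta subunits Scn2b, Scn3b and Scn4b, and the intracellular FGF homologous factors Fgf11, Fgf12, Fgf13 and Fgf14. They were taken by gene name through the Ensembl identifiers of the count tables and make up 7 of the 55414 genes listed. All 7 passed the filter on low counts, which 17721 genes passed. The data are bulk RNA-seq read counts from dorsal root ganglia (DRG), which hold the cell bodies of somatosensory neurons and their glia, taken from mouse embryos at E18.5, just before birth. In 4 AD1 OE libraries the genotype was AdvillinCre/+;Rosa26Dach1/+, and in 4 Control libraries it was Advillin+/+;Rosa26Dach1/+. Both groups therefore carried a Rosa26 allele from which the transcription factor Dach1 is expressed only after Cre has acted, and only AD1 OE carried Cre. Cre is expressed from the Advillin locus, which is active in sensory neurons, so glia are not the targeted cells. The Rosa26Dach1 line was of mixed C57Bl/6J and CD1 background, and AD1 OE animals die after birth. In these embryos Dach1 is first restricted to a subset of neurons as in normal development and is then expressed again in sensory neurons at large. The comparison asks how the transcriptome of the ganglion differs after this late, broad expression. The groups also differ in Cre and in the Advillin genotype, and no library carried Cre without the Rosa26Dach1 allele. The part of Cre or of the Advillin genotype in any difference between the groups was not tested.

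Voltage-gated sodium channels are built around an alpha subunit that forms the pore. Beta subunits are single-pass membrane proteins with an extracellular immunoglobulin domain; they change the gating and surface level of the channel and also act as adhesion molecules. FGF homologous factors look like fibroblast growth factors but are not secreted: they bind the intracellular C-terminal tail of the alpha subunit and shift the voltage dependence of inactivation. In sensory neurons both families help to set how readily and how often a neuron fires.

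The labels were checked on Dach1, the gene that the Rosa26 allele expresses after Cre has acted, and on Avil. Dach1 was at 95.9 ± 5.28 CPM (read count scaled to a common library size, with TMM normalisation; SD, n = 4) in AD1 OE and 32.6 ± 1.64 in Control. Avil, whose locus drives Cre, was at 463.6 ± 12.03 and 891.8 ± 35.1 CPM. Library totals ran from 22339059 to 44025625 counts. Libraries that carried Y-linked transcripts and little Xist were read as male: 3 of 4 in AD1 OE and 1 of 4 in Control, so sex was unequal between the groups. Transcripts of spinal cord markers were at 3.92 to 7.46 CPM in sum in AD1 OE and 3.99 to 27.3 in Control, with Control replicate 1 highest and Control replicate 4 next at 14.9.

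The promoters of Scn2b and Scn4b are shown because these genes are neighbours on chromosome 9, read on the same strand with starts 20748 bases apart, while only Scn4b was called as changed. Each line gives the 250 bases before the RefSeq start of transcription in GRCm38.p6, an older build than the GRCm39 used for counting, with capitals marking a match to CCAAT or its reverse complement.
Scn2b, chr9:45117626-45117875, plus strand: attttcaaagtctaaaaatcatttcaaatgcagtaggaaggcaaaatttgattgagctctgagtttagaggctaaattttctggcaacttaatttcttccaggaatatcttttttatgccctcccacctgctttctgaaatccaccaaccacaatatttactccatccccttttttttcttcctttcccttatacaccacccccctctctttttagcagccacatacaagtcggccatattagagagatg
Scn4b, chr9:45138374-45138623, plus strand: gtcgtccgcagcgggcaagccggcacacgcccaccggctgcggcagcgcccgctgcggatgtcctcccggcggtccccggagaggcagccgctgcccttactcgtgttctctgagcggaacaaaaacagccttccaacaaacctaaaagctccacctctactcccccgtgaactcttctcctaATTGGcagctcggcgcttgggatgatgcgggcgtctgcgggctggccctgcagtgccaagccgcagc
The Scn4b window had a GC content of 66.0% and 23 CpG dinucleotides, whereas the Scn2b window had 38.4% and 1. The medians over 32851 RefSeq mouse promoters of the same length were 52.4% and 6. The CCAAT box was found on either strand in 33.8% of these promoters, and among TATAAA (12.4% of promoters), GGGCGG (32.7%) and CACGTG (6.0%), searched on both strands with overlaps allowed, no match occurred in either window.

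Fgf12 and Fgf13 are each transcribed from several starts, and both genes give proteins with different N-terminal ends. The deposited counts hold 1 value per gene and do not separate starts. Whether the annotation used for counting held every RefSeq start was not established. RefSeq places 4 starts over 307168 bases for Fgf12 and 4 over 451136 bases for Fgf13. The 60 bases before 7 of these starts are shown for comparison. Capitals mark GGGCGG or its reverse complement, which the 3 Fgf12 stretches do not hold. The third start of Fgf12 lies close to the second and is not shown, and its 60 bases do hold a match. In the 250 bases before starts 1 to 4 there were 2, 1, 2 and 0 matches for Fgf12. For Fgf13 there were 0, 3, 0 and 4.
Fgf12 start 1, chr16:28753244-28753303, minus strand: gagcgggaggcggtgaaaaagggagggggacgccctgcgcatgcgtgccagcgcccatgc
Fgf12 start 2, chr16:28564952-28565011, minus strand: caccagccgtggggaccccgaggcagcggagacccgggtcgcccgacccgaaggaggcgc
Fgf12 start 4, chr16:28446076-28446135, minus strand: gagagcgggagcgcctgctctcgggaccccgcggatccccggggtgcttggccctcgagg
Fgf13 start 1, chrX:59585573-59585632, minus strand: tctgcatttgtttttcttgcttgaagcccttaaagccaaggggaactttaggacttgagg
Fgf13 start 2, chrX:59567349-59567408, minus strand: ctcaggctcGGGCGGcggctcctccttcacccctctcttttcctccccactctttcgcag
Fgf13 start 3, chrX:59166089-59166148, minus strand: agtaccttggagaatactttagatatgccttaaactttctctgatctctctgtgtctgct
Fgf13 start 4, chrX:59134437-59134496, minus strand: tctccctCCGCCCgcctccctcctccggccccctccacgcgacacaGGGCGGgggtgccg
The 250-base windows before the 4 Fgf13 starts had GC contents of 45.6%, 74.8%, 40.4% and 74.4%, so these windows differ in base composition. No statement on the use of single starts can be made from counts per gene.

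Of the 7 genes, Scn4b rose in AD1 OE and no other member passed the test. A gene was called at an adjusted p under 0.005 in edgeR's quasi-likelihood test, with Benjamini-Hochberg adjustment over all 17721 genes, together with an absolute log2 fold change over 0.25. By this rule 2.57% of all tested genes were called, 0.784% higher and 1.78% lower in AD1 OE, and 1 of 7 members. The libraries of the groups did not overlap for 4 members (Scn3b, Scn4b, Fgf12 and Fgf13), beside 13.0% of all tested genes. With an adjusted p under 0.05 and no limit on size, 3 members (Scn4b, Fgf12 and Fgf13) would be called, beside 6.55% of all tested genes. In DESeq2, at the same rule as the main test, Scn4b and Fgf12 were called, beside 3.42% of all genes tested there. In bulk ganglia, fewer cells of a type and less RNA per cell cannot be told apart. The study counted neurons stained for Islet1, Prdm12, TrkB and TrkC on E18.5 DRG sections and reports appropriate numbers in AD1 OE. The part of cell numbers in the member values was not tested.

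**Figure D1:**
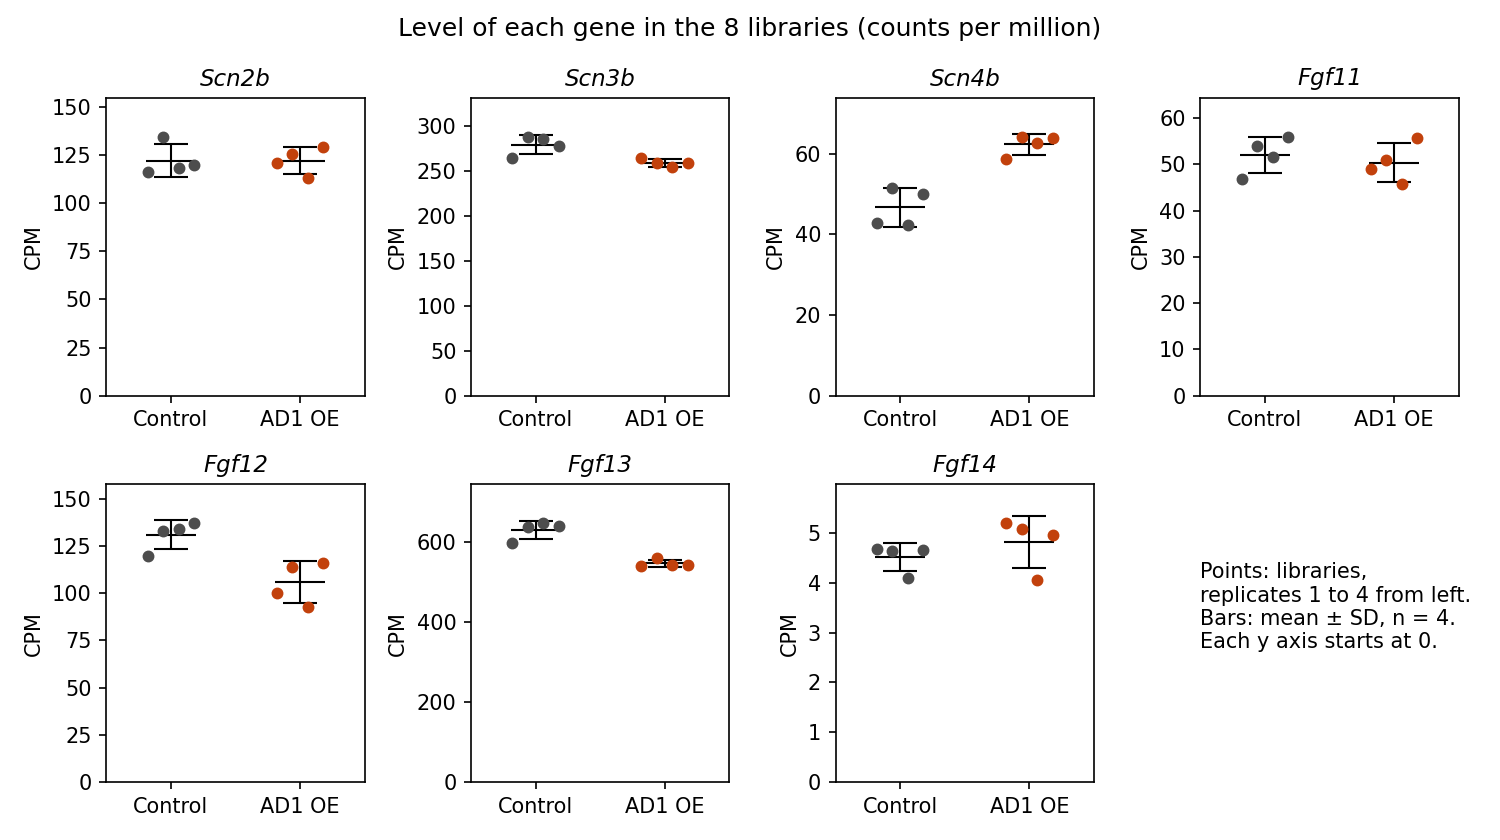
CPM of each gene in the 4 Control (grey) and 4 AD1 OE (orange) libraries, 1 point per library in the order of replicate number, with the mean and SD. Scn4b lies higher in every AD1 OE library, Fgf12, Fgf13 and Scn3b lie lower in every AD1 OE library, and Scn2b, Fgf11 and Fgf14 overlap.

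Scn4b (ENSMUSG00000046480) encodes a beta subunit linked to the alpha subunit by a disulphide bond, whose intracellular tail can block the open pore and give resurgent sodium current. In AD1 OE its level was 58.6, 64.2, 62.7 and 63.9 CPM in replicates 1 to 4. In Control it was 42.8, 51.6, 42.4 and 49.9 CPM. The lowest AD1 OE library thus lay above the highest Control library. The means were 62.3 ± 2.59 and 46.7 ± 4.75 CPM, a log2 fold change of 0.41 (SE 0.067, 95% interval 0.27 to 0.56) or 1.33-fold, with an adjusted p of 0.0024 by edgeR. The call was close to its threshold: the adjusted p was 0.00989 with sex as a term in the edgeR fit (log2 fold change 0.38). It was 0.00933 without AD1 OE replicate 2, 0.00877 without AD1 OE replicate 4, 0.00601 without Control replicate 1 and 0.00746 without Control replicate 3. The log2 fold change stayed between 0.37 and 0.46 when any 1 library was left out. Within females the log2 difference was 0.47 and within males 0.32, with 1 library in a group each time and no test.

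Scn3b (ENSMUSG00000049281) encodes a beta subunit that binds the alpha subunit without a covalent bond, and it was the beta subunit with the highest level per kb. In AD1 OE it was at 264.2, 258.9, 254 and 258.4 CPM in replicates 1 to 4. The Control libraries were at 264.9, 287.9, 285.6 and 277.9 CPM. The groups did not overlap, but the highest AD1 OE library and the lowest Control library, replicate 1, were nearly level. The log2 fold change was -0.11 (95% interval -0.19 to -0.03) and the adjusted p was 0.137 by edgeR, so the difference did not pass the test.

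Scn2b (ENSMUSG00000070304), the other disulphide-linked beta subunit examined here and the neighbour of Scn4b, was at 120.8, 125.5, 113.1 and 129 CPM in AD1 OE. The 4 Control libraries gave 116, 134.5, 118.1 and 120 CPM. The 2 ranges overlapped almost fully. The log2 fold change was -0.0019 with a 95% interval of -0.12 to 0.11 (adjusted p of 0.991 by edgeR), so a change of the size fitted for Scn4b lies outside the interval of its neighbour.

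Fgf13 (ENSMUSG00000031137) was the most abundant member. Its product binds sodium channel alpha subunits and also microtubules. It was at 539, 558.7, 542.7 and 542.6 CPM in AD1 OE. Control values were 596.9, 636.1, 646.1 and 639.5 CPM. Every AD1 OE library was below every Control library, and both groups were tight, with coefficients of variation of 1.61% and 3.53%. The AD1 OE mean was 86.7% of the Control mean, a log2 fold change of -0.21 (95% interval -0.30 to -0.12), with an adjusted p of 0.0105 by edgeR. Its size stayed below the limit of 0.25 in each of the 9 other fits over all libraries and the 8 fits with 1 library left out, so it was called in none of them, although its adjusted p was under 0.005 with DESeq2 (2.87e-07), with limma-voom (0.00359) and without Control replicate 1 (0.00449). Fgf13 is on the X chromosome; the male and female log2 differences between the groups were -0.23 and -0.21, from 3 against 1 and 1 against 3 libraries.

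Fgf12 (ENSMUSG00000022523), a second channel-binding factor, was at 99.97, 114.1, 92.95 and 116 CPM in AD1 OE. In Control it was at 119.8, 133.2, 133.9 and 137.2 CPM. The groups did not overlap, although AD1 OE replicate 4 and Control replicate 1 were close. The AD1 OE mean was 80.6% of the Control mean, a log2 fold change of -0.31 (95% interval -0.46 to -0.16), with an adjusted p of 0.0174 by edgeR. Its size exceeded the limit of 0.25 but its p did not pass. Fgf12 was called in 3 other fits: DESeq2 (adjusted p of 0.000646), edgeR with sex as a term (log2 fold change -0.40, adjusted p of 0.00402) and edgeR with no filter on low counts (adjusted p of 2.91e-05). Within females the log2 difference was -0.47 and within males -0.32, with no test since a group then held 1 library.

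Fgf11 (ENSMUSG00000042826), another factor of this family, was at 48.9, 51.0, 45.7 and 55.7 CPM in AD1 OE. Control libraries gave 46.8, 53.9, 51.5 and 55.9 CPM. The groups overlapped. The log2 fold change was -0.05 (95% interval -0.20 to 0.10, adjusted p of 0.764 by edgeR).

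Fgf14 (ENSMUSG00000025551), altered in an inherited spinocerebellar ataxia, had the lowest level of the 7 genes, with 104 to 230 reads per library. It was at 5.20, 5.08, 4.06 and 4.97 CPM in AD1 OE. Control values lay at 4.68, 4.64, 4.09 and 4.66 CPM. The groups overlapped, and replicate 3 was lowest in each. The log2 fold change was 0.10 (95% interval -0.13 to 0.33, adjusted p of 0.688 by edgeR). An antisense gene, Gm28932, shares 5.26% of the Fgf14 exon bases and had 2 to 6 reads per library.

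**Figure D2:**
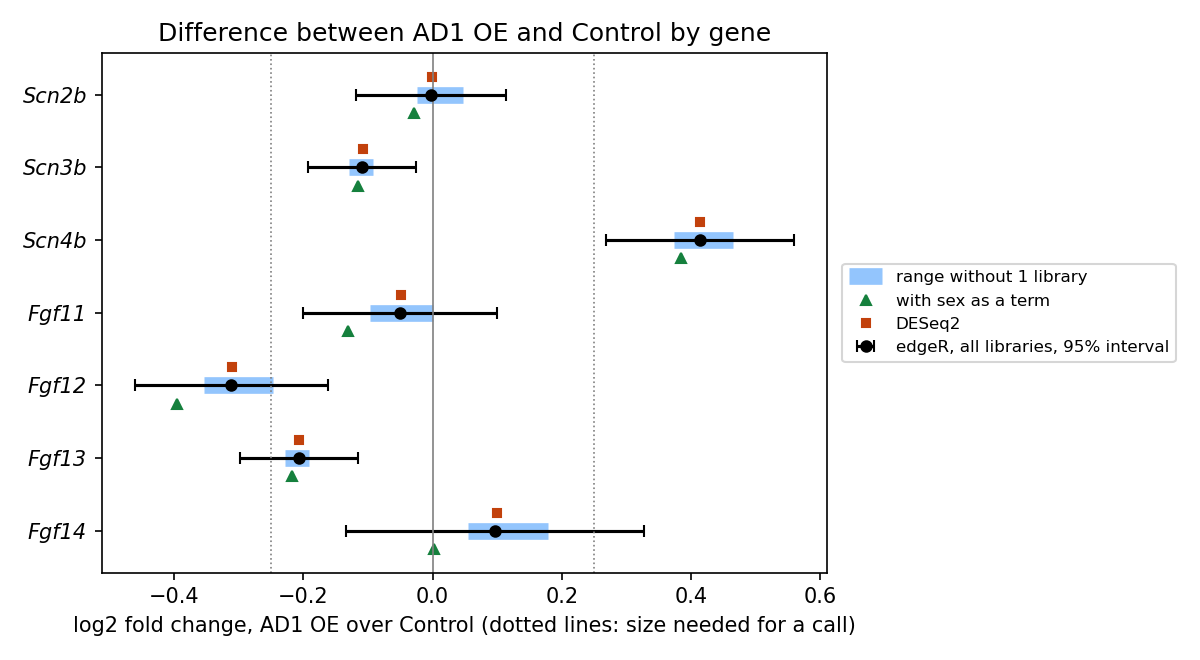
Log2 fold change of AD1 OE over Control for each gene with its 95% interval (black), the range when 1 library is left out (blue), and the values from DESeq2 (orange squares) and with sex as a term (green triangles). Dotted lines mark the size of 0.25 needed for a call; only the Scn4b interval lies wholly to the right of its line.

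Levels between genes were compared as CPM per kb of exon sequence. In Control the order was Fgf13 at 156.7 ± 5.54 CPM per kb, Scn3b at 51.1 ± 1.90, Scn2b at 26.2 ± 1.80, Fgf12 at 21.1 ± 1.24, Fgf11 at 17.1 ± 1.30, Scn4b at 9.37 ± 0.953 and Fgf14 at 1.08 ± 0.0686 (SD, n = 4). The ranges of neighbours in this order did not overlap in Control. In AD1 OE the order was the same by mean, but Fgf12 at 17.1 ± 1.79 CPM per kb and Fgf11 at 16.5 ± 1.38 overlapped.

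The 3 beta subunits summed to 86.1 ± 1.97 CPM per kb in AD1 OE and 86.7 ± 4.07 in Control, with overlapping ranges. The make-up of this sum differed: Scn4b was 14.5% ± 0.614 of it in AD1 OE and 10.8% ± 0.763 in Control, and Scn3b was 55.0% ± 1.12 and 59.0% ± 1.38, each without overlap between groups. Scn2b was 30.4% ± 1.03 and 30.2% ± 0.876. The 4 FGF factors summed to 170.5 ± 4.47 CPM per kb in AD1 OE and 196 ± 7.83 in Control, with no overlap, and Fgf13 was 79.7% ± 1.42 and 80.0% ± 0.585 of the sum. Fgf13 alone was at 135.8 ± 2.19 and 156.7 ± 5.54 CPM per kb. A share does not depend on library scaling. Shares within a family add up to the whole, so a higher Scn4b share by itself lowers the others. The Scn4b and Scn3b share differences are therefore not separate results.

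**Figure D3:**
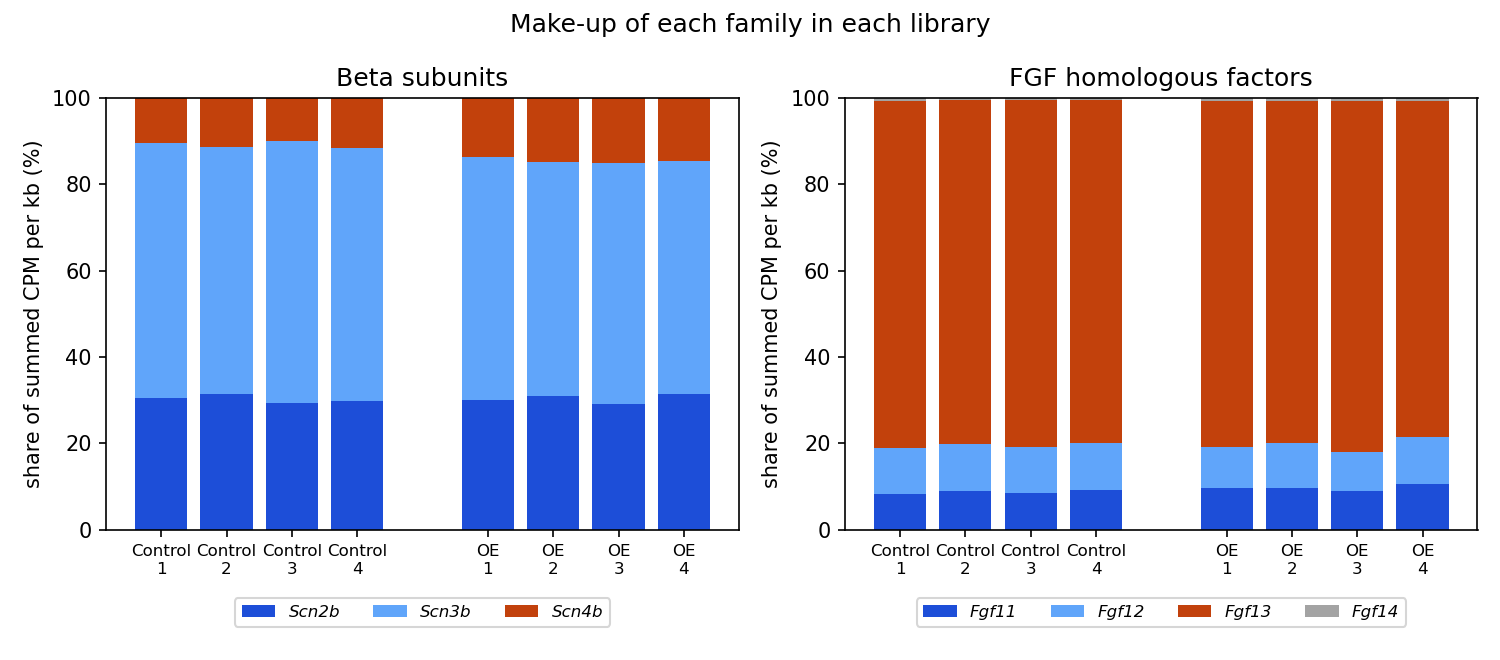
Share of each gene in the summed CPM per kb of its family, 1 bar per library, for the beta subunits (left) and FGF factors (right). The Scn4b share is higher in the 4 AD1 OE bars than in the 4 Control bars, and Fgf13 makes up most of every FGF bar.

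The alpha subunits, the partners of both families, held 2 called genes among the 9 examined here. Scn10a and Scn7a fell (log2 fold change -0.83, adjusted p of 6.39e-06, and -0.46, adjusted p of 0.00276, by edgeR). Scn10a forms a channel of nociceptors, and Scn7a is a sodium sensor not gated like the others. In all, 5 of the 9 had an unadjusted p under 0.05, beside 18.6% of all tested genes. The 3 of these not called, named after their values were seen, were Scn1a (log2 fold change -0.29, adjusted p of 0.0341 by edgeR), Scn11a (0.21, adjusted p of 0.0858) and Scn4a (0.92, adjusted p of 0.0102). Scn4a, the channel of skeletal muscle, had the largest log2 fold change in size of these 9 genes and the lowest CPM. It was at 6.47 ± 1.46 CPM in AD1 OE and 3.41 ± 0.82 in Control, higher in every AD1 OE library. The sums of the muscle markers, given below, overlapped between the groups. In sum these 9 alpha subunits were at 356.5 ± 22.2 CPM per kb in AD1 OE and 439.2 ± 28.9 in Control. The ratio of the beta subunit sum to this sum was 0.242 ± 0.0101 and 0.198 ± 0.00710, without overlap, while the ratio of the FGF factor sum was 0.479 ± 0.0226 and 0.447 ± 0.0151, with overlap.

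Other genes of the sodium channel and FGF systems gave no call. None of 14 axon initial segment and node proteins was called (median log2 fold change 0.0053), with Cntnap2 (-0.30, adjusted p of 0.00795) and Cntn1 (-0.17, adjusted p of 0.0359), both axonal adhesion proteins, having the lowest p; 3 had an unadjusted p under 0.05, beside the 18.6% of all tested genes given above. None of 9 proteases that cleave beta subunits was called (median 0.018, 2 with an unadjusted p under 0.05), and the lowest p belonged to Psenen (-0.22, adjusted p of 0.214) and Adam10 (0.10, adjusted p of 0.24). None of 19 trafficking proteins, kinases and ligases that act on sodium channels was called, but 11 had an unadjusted p under 0.05 and their median was -0.10. The lowest p there belonged to Mapk8ip1, a scaffold protein of the JNK pathway (-0.22, adjusted p of 0.00918), and Prkca, a protein kinase (-0.29, adjusted p of 0.0161). Of the 25 secreted FGFs and FGF receptors and co-receptors, 15 were tested and none was called (6 with an unadjusted p under 0.05), with Kl (-0.71, adjusted p of 0.0365) and Fgfr1 (0.11, adjusted p of 0.191) the lowest in p together with Fgfr2 (0.24, adjusted p of 0.191). All adjusted p values here are from edgeR; the median over all tested genes was 0.0018.

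**Figure D4:**
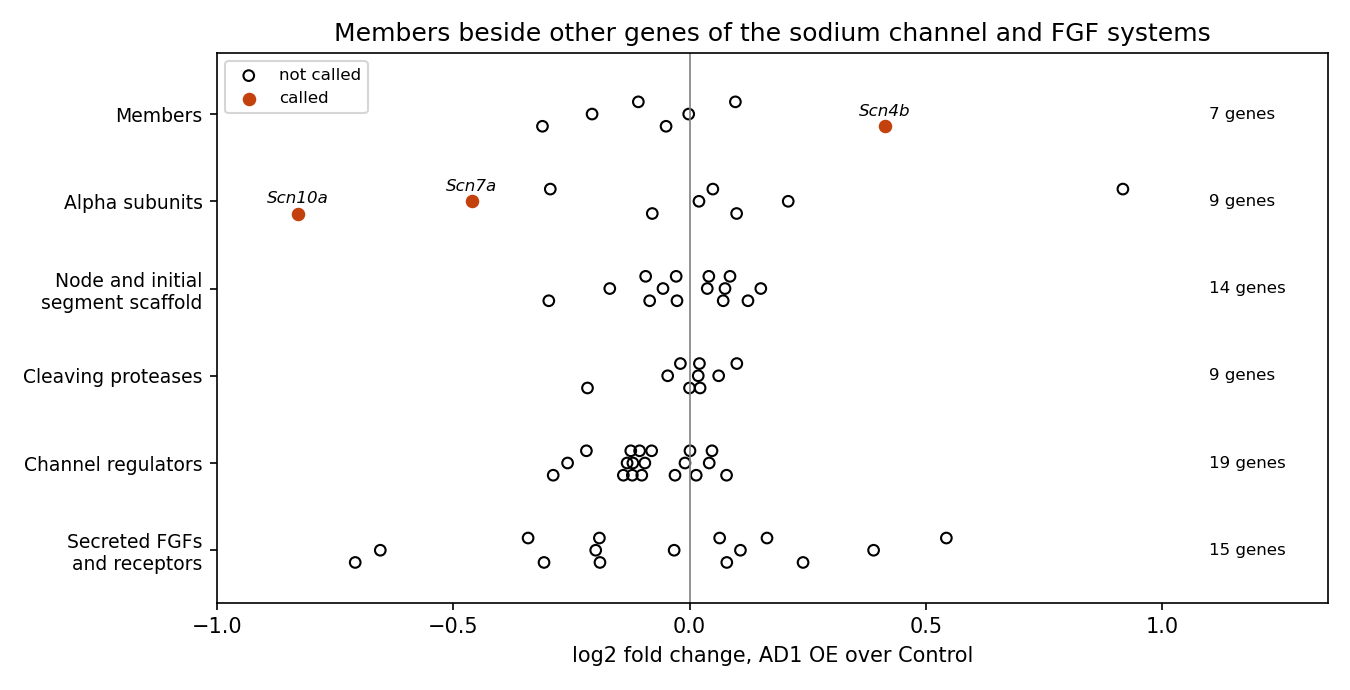
Log2 fold change of AD1 OE over Control for the 7 members and 5 lists of related genes, 1 point per tested gene, with called genes filled and named. Scn4b is the only called member, 2 of 9 alpha subunits are called, and the other lists hold no called gene.

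Cell type markers were summed beside these values. Pan-neuronal genes had 0 of 10 called and summed to 7085 to 7350 CPM in AD1 OE and 7137 to 7524 in Control. Of 10 nociceptor markers 4 fell (Calca, Tac1, Mrgprd and Trpm8), with sums of 2360 to 2462 and 2643 to 2838 CPM, and of 12 markers of large-diameter myelinated neurons 1 fell (Etv1), with sums of 5463 to 5975 and 5565 to 6043 CPM. Schwann cell and satellite glia markers had 0 of 10 called, at 1314 to 1645 and 1337 to 1626 CPM. Skeletal muscle markers reached 777.1 CPM in AD1 OE replicate 3 against 140.9 to 459 CPM in the other libraries, and sympathetic markers reached 18.8 CPM in Control replicate 1. The part of any of these in the member values was not tested.

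The genes whose levels followed each member most closely over the 8 libraries were ranked by Pearson's r of log2 CPM among the 11000 tested genes whose mean reached 10 CPM, as a description. They share libraries and the group difference. For Scn4b they were Slc35f3 (r = 0.982), Nptx1 (0.980, itself called higher) and Pik3cb (0.978). For Fgf13 they were Slc7a8 (0.996, called lower), Dync1i2 (0.991) and St3gal1 (0.986, called lower). Fgf12 was followed by Gabra2 (0.989) and Slc6a15 (0.985), and Scn3b by Gyg (0.990), Gnal (0.974) and Nrip1 (0.973, called lower). Among the members whose groups overlapped, Scn2b was followed by Tle1, Siae and Adamts3 (0.942 to 0.927). Fgf11 was followed by Kcnc4, Plekhb2 and Plcxd2 (0.978 to 0.961), and Fgf14 by Hacd4 and Tti2 (0.948 and 0.904).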

How the data were processed

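The authors aligned reads with STAR 2.7.8a to GRCm39 and counted them per gene with featureCounts 2.0.1, per the labels and methods, and deposited 1 table of raw counts per library. The kit was a stranded mRNA kit; the strand setting of the counting is not given in the sources used here. The study's figure legend counts 4 embryos per group for this comparison; whether any library pooled embryos is not given in the sources used here. Replicates differed by more than counting noise (chi-square per degree of freedom 4.02 to 11.1 over 12 pairs).

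Identifiers were matched to GENCODE symbols for 52133 of 55414 genes, including all 170 listed genes. Counts were tested with edgeR 4.0.16 (R 4.3.3; quasi-likelihood, TMM, filterByExpr), with limma-voom 3.58.1, DESeq2 1.42.0, other scalings and filters, sex or replicate number as a term, other thresholds and leaving out each library as alternatives. The fit was tested on simulated data. CPM per kb used GRCm38 exon lengths. Promoters are RefSeq GRCm38.p6, matched for 6 of 7 members.

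The members and lists were chosen with earlier results of these data known. Named genes are the members, the called genes of each list (or, where none was called, the 2 with the lowest p, with a tie kept), called markers, the 3 genes most like each member, and Dach1 and Avil; a few genes that this rule would name are not reported here, and 1 of them was left out of its list and its sums after values were seen.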

Additional observations from a re-analysis of the deposited data

Results flagged for a closer look

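Among 14 sets of 4 libraries (7 genes in each group), 1 held a library far from the rest: Fgf14 in Control, where replicate 3 at 4.09 CPM lay below the others at 4.64 to 4.68, a gap of 0.934 of the whole range. Chance flags about 1 in 20 such sets.

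Scn2b was lower in AD1 OE among females (log2 difference -0.1159, or 113.1 CPM in 1 library against 116 to 134.5) and higher among males (0.0592, or 120.8 to 129 against 120 in 1 library). Fgf14 was also lower among females (-0.1378, 4.06 against 4.09 to 4.68 CPM) and higher among males (0.1246, 4.97 to 5.20 against 4.66 CPM). The difference between the sexes was not tested, and each value rests on 1 library in 1 of the groups.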

How the results depend on the processing

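Over all genes 455 were called, against 747 with no expression filter, 1161 at an adjusted p under 0.05, 129 at that p with an absolute log2 fold change over 1, and 289 to 420 with 1 library left out. Among the 7 members 1 was called, against 2 with no expression filter and 2 with DESeq2 (Scn4b and Fgf12 in both), 3 at an adjusted p under 0.05, 0 with the larger fold change, and 0 to 1 with 1 library left out (0 without AD1 OE replicate 2 or 4 or Control replicate 1 or 3). With sex as a term the 1 member called was Fgf12 and not Scn4b. Scn2b, whose value lies near 0, turned positive with upper-quartile scaling (0.0035), library totals only (0.0165), no expression filter (0.0025), a filter of at least 1 CPM (0.0013) and without AD1 OE replicate 1, AD1 OE replicate 3 or Control replicate 2, with a range of -0.0241 to 0.0477 when 1 library was left out. Fgf11 turned positive without AD1 OE replicate 3, with a range of -0.097 to 7e-04. The other 5 members kept their direction in all alternatives run, and of all alternatives for single members 102 kept call and direction, 5 lost the call, 3 gained it and 9 changed sign. With replicate number as a block, 348 genes and 1 member (Scn4b) were called, and Scn2b was at 4e-04. The labels do not say whether equal replicate numbers pair the samples, and the values here cannot settle it. The correlations of same-numbered deviations were -0.01, -0.05, -0.04 and 0.31. Of the 4 AD1 OE libraries, 1 correlated best with its own number. Scaling moved the median of all genes by at most 0.02. Depth limits Fgf14 most, at 104 to 230 reads per library.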
